A study of Homo sapiens with 6 samples.

Results

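The collagen chains were examined as a gene family in HuCCT1, an established cell line of human bile duct cancer (cholangiocarcinoma). Members were all rows of the deposited count table whose symbol has the form COL, a type number, A and a chain number, which gave 44 of 26485 rows. They were grouped by textbook structure into 11 fibrillar, 9 basement membrane, 10 FACIT (fibril-associated collagens with interrupted triple helices), 8 network and 4 transmembrane chains, with 2 others. Polyadenylated RNA was sequenced in 6 libraries. Libraries a, b and c labelled WT came from CRISPR clone 1, and libraries a, b and c labelled as AQP1 knockout came from clone 22, in which aquaporin-1, a water channel, was targeted with CRISPR/Cas9. All 6 came from cells grown in DMEM-F12 with serum. Each genotype was thus 1 clone, and an effect of genotype and a difference between clones cannot be told apart. Nothing in the labels ties a, b and c to separate cultures; p-values then measure only how far libraries of 1 clone spread, and that spread may be technical.

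Library totals were between 36925338 and 41724447 counts. AQP1 itself held 2, 8 and 10 counts in wild-type libraries and 10, 7 and 7 in knockout libraries, so its level did not separate the groups and is no check of the labels. Of 9 bile duct and epithelial markers read as a check of the cell type, 8 fell in knockout (described with the other cell type markers), and the least changed of those that passed was the keratin KRT7, at 1751 ± 38.3 counts per 1000000 counts of a library (CPM; mean ± SD, n = 3 here and below) in wild type and 1613 ± 12.5 CPM in knockout.

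Collagens are secreted or membrane proteins in which 3 chains wind into a helix, and while many types are built from copies of a single chain, others, such as types I, IV, V, VI and IX, combine different partner chains. Fibrillar collagens form the cables of connective tissue, type IV forms the sheet-like scaffold of basement membranes under epithelia, type VI forms beaded filaments, FACIT chains sit on fibril surfaces, and transmembrane collagens such as type XVII anchor epithelial cells to what lies beneath. In the bile duct, epithelial cells rest on a basement membrane, while fibroblasts are the main source of fibrillar collagen in the surrounding tissue.

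Of the 44 chains, 26 were abundant enough to test, 8 were too low and 10 were not detected, meaning at most 3 counts in every library. In the comparison of knockout with wild type (edgeR quasi-likelihood test, Benjamini-Hochberg adjusted p under 0.05 over 14405 rows), 14 of the 26 rose, 6 fell and 6 did not pass. Most of the transcriptome differed between these clones: 74.4% of all tested genes passed, with 37.1% higher and 37.2% lower, against 76.9% of tested collagen chains, with 53.8% higher and 23.1% lower. The share that passed was therefore near the background. A change of at least 2-fold was found for 16 of the 26 chains (61.5%; 11 higher and 5 lower), against 22.8% of all tested genes. The CPM values of the groups did not overlap for 21 chains (80.8%), against 77.3% of all tested genes. The median log2 fold change was 0.86 over the 26 chains and 0.0056 over all tested genes. Of these 26 chains, 6 passed the filter on low counts through 1 group only (COL4A3 through wild type; COL6A3, COL14A1, COL21A1, COL24A1 and COL28A1 through knockout). Of the 20 that passed through both groups, 11 rose and 5 fell, 12 of them by at least 2-fold. No share was computed over all genes that passed through both groups. The shares above cover every tested gene and are not a like background for these 20.

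**Figure D1:**
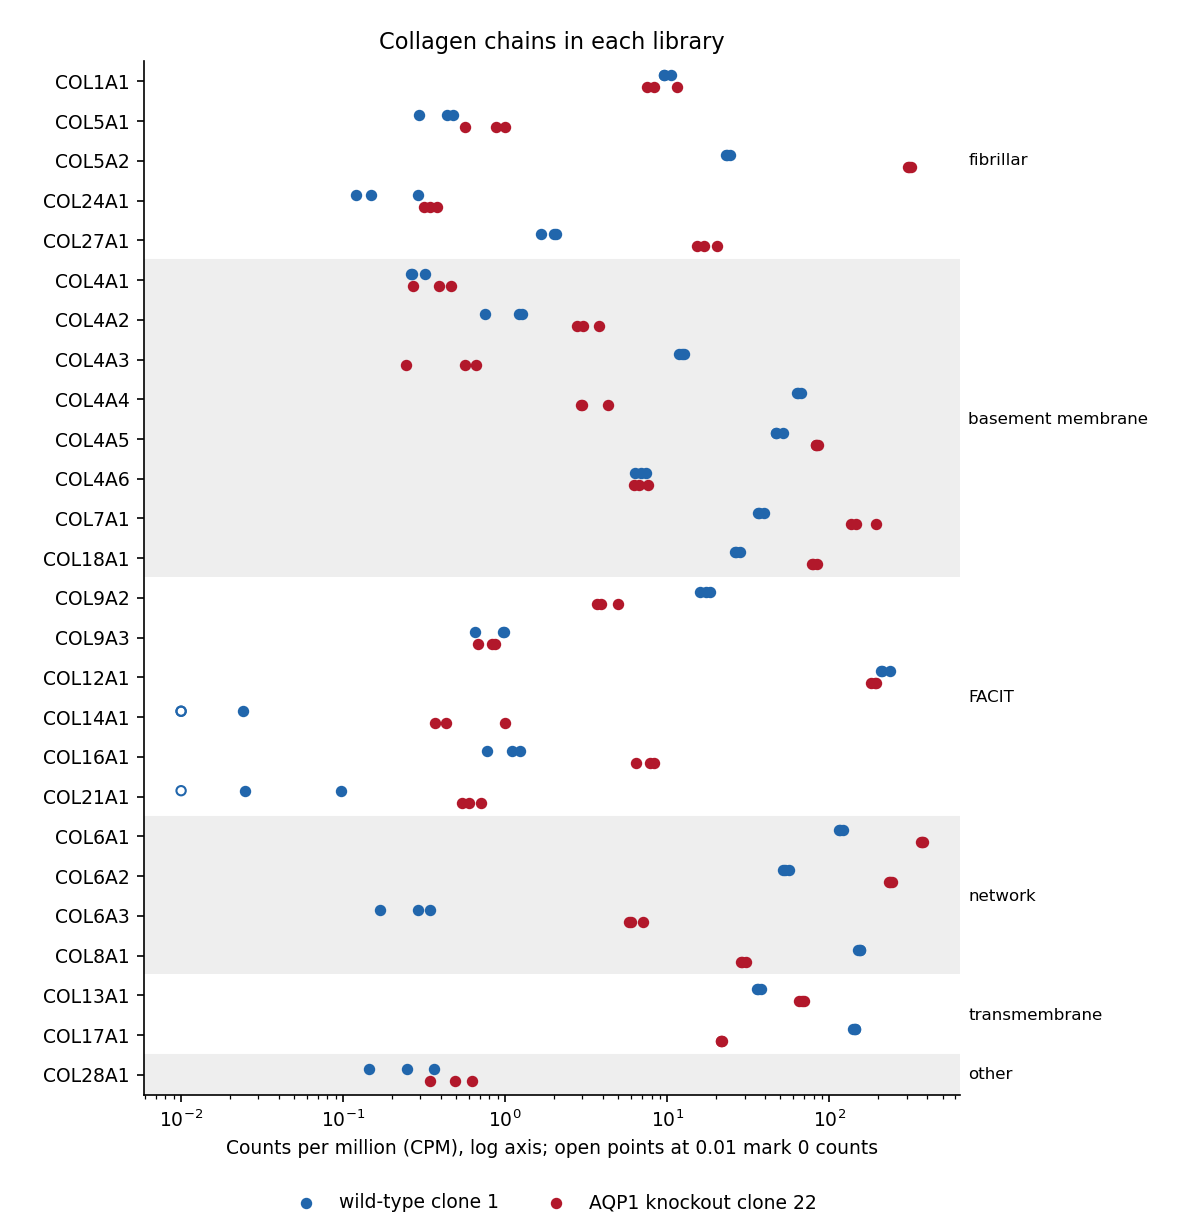
Level of each tested collagen chain in each library, in CPM on a log axis, with blue points for the 3 wild-type and red points for the 3 knockout libraries and open points for 0 counts. COL5A2, COL6A3 and COL27A1 lie far to the right in the knockout libraries, COL4A3, COL4A4, COL8A1 and COL17A1 far to the left, and the points of COL1A1, COL4A1, COL4A6, COL9A3 and COL28A1 overlap between groups.

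Among the basement membrane chains, 8 of 9 members were tested, and 4 rose (COL4A2, COL4A5, COL7A1 and COL18A1), 2 fell (COL4A3 and COL4A4) and 2 did not pass (COL4A1 and COL4A6). Type IV chains lie in pairs that start back to back on opposite strands. In RefSeq (GRCh38.p14), the starts of COL4A1 and COL4A2 are 127 bases apart. Those of COL4A3 and COL4A4 are 419 bases apart, with COL4A4 taken to start at chr2:227164205, and those of COL4A5 and COL4A6 are 380 bases apart. The RefSeq span of COL4A4 reaches further, to chr2:227164488, so its outermost start lies nearer to COL4A3. Parts of the sequences between the starts of the last 2 pairs are shown because 1 pair moved together and the other did not. Whether these sequences have a part in the changes was not tested. Stretches are given 5′ to 3′ on the strand of the named chain, and lie outside GENCODE 29 exons and RefSeq genes, except a 30-base site that lies in an annotated first exon of COL4A4, with motif matches on either strand in capitals. The motifs searched were CAGGTG, a form of the E-box. The second was the CCAAT box, a common promoter element. The last was TATAAA, the core promoter element near many start sites.
COL4A3, chr2:227164398-227164427, plus strand: tggatccgcgccCACCTGcccctcaggcgc
COL4A4, chr2:227164398-227164427, minus strand: gcgcctgaggggCAGGTGggcgcggatcca
COL4A3, chr2:227164489-227164564, plus strand: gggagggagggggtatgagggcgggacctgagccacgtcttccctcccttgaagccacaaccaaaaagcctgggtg
COL4A5, chrX:108439588-108439837, plus strand: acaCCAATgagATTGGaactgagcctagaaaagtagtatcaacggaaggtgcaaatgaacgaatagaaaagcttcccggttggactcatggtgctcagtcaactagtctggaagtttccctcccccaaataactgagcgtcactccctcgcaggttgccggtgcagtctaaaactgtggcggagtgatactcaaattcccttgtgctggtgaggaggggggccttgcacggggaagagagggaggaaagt
COL4A6, chrX:108439498-108439708, minus strand: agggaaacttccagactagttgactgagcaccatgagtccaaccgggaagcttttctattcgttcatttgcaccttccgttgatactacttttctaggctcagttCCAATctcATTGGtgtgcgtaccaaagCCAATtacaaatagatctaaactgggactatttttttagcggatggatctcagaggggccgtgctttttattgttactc
The windows before the COL4A3 and COL4A4 starts share 82 bases, and 1 CAGGTG site lies in both. The COL4A4 window is the one before chr2:227164205, so this site lies inside the RefSeq span of COL4A4. The COL4A5 window and the window of the nearer COL4A6 start share 121 bases, with 2 and 3 CCAAT matches and no CAGGTG. A second COL4A6 start lies 1416 bases from that of COL4A5.

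COL4A3 and COL4A4 encode chains that assemble with the COL4A5 chain into the mature basement membrane network known from kidney, lung and inner ear. COL4A4 was at 64.5, 66.9 and 63.5 CPM in wild-type libraries and at 2.99, 4.30 and 2.95 CPM in knockout libraries, a log2 fold change of -4.30 (SE 0.108, adjusted p = 3.48e-13). COL4A3 was at 11.8, 12.4 and 12.7 CPM against 0.661, 0.244 and 0.569 CPM (log2 fold change -4.70, SE 0.216, adjusted p = 1.70e-10). Both chains were low in all 3 knockout libraries with no overlap, and these were the only type IV chains that fell. The groups did not overlap for 77.3% of all tested genes either. COL4A3 passed the filter on low counts through wild type only, so its values are not separate from that filter. COL4A3 spans chr2:227164624-227314792 (plus strand) and COL4A4 chr2:226967360-227164488 (minus strand) in RefSeq, which gave all gene positions here (GRCh38.p14). The other tested genes that start within 5 Mb of this pair had a median log2 fold change of -0.17 over 40 genes, and within 2 Mb of COL4A4 the median was -0.65 over 8 genes, of which 1 was higher and 6 lower. The part of the region in the falls of the pair was not tested.

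COL4A5 and COL4A6 lie on chromosome X at 108439838-108697545 and 108155614-108439458. COL4A5 was at 51.7, 46.8 and 47.2 CPM in wild type and at 85.0, 83.0 and 83.0 CPM in knockout (log2 fold change 0.73, SE 0.046, adjusted p = 5.22e-09). COL4A6, which forms a network with COL4A5, was at 7.35, 6.90 and 6.33 CPM against 6.66, 7.60 and 6.23 CPM and did not pass (log2 fold change -0.06, SE 0.122, adjusted p = 0.679). The COL4A5 groups were separate and those of COL4A6 overlapped. Genes within 5 Mb had medians of 0.39 around COL4A5 (22 higher and 8 lower of 38) and 0.45 around COL4A6 (25 higher and 8 lower of 41). The part of the region in the COL4A5 rise was not tested.

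COL4A1 and COL4A2, the chains of the type IV network found in nearly all basement membranes, were low in both clones. COL4A2 held 49, 31 and 53 counts in wild type and 155, 113 and 112 in knockout (1.08 ± 0.284 against 3.20 ± 0.536 CPM; log2 fold change 1.51, SE 0.248, adjusted p = 8.27e-05). COL4A1 held 13, 11 and 11 counts against 11, 16 and 17 (log2 fold change 0.34, SE 0.443, adjusted p = 0.507). Only COL4A2 was separate between groups. Their surroundings on chromosome 13 also ran higher in knockout, with a median log2 fold change of 0.52 over 38 genes within 5 Mb, of which 30 passed as higher and 2 as lower. The part of the region in the COL4A2 value was not tested.

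COL7A1, the chain of the anchoring fibrils that tie basement membrane to the tissue below, was at 36.2, 39.5 and 37.0 CPM in wild type and at 146, 137 and 193 CPM in knockout (log2 fold change 2.02, SE 0.098, adjusted p = 2.89e-10). Knockout library c was the highest and all 3 knockout libraries lay above wild type. COL18A1, whose C-terminal fragment is endostatin, was at 26.5, 26.3 and 28.1 CPM against 84.0, 79.5 and 78.7 CPM (log2 fold change 1.53, SE 0.051, adjusted p = 6.74e-12). Exons of SLC19A1 on the other strand overlap COL18A1, and their own mean count was 1198 in wild type and 917 in knockout. Whether reads were counted by strand is not given in the sources used here, so the COL18A1 level is uncertain. COL15A1, the other multiplexin, was too low to test, with at most 9 counts in a library.

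Of the 11 fibrillar members, 5 were tested, 3 rose (COL5A1, COL5A2 and COL27A1) and 2 did not pass (COL1A1 and COL24A1), with none lower. COL5A2, the most abundant of them in both clones and a chain of type V collagen, which is incorporated into type I fibrils and limits their width, was at 24.5, 23.5 and 22.9 CPM in wild type and at 320.4, 312 and 308 CPM in knockout. This was a 12.8-fold difference (log2 fold change 3.68, SE 0.033, adjusted p = 1.75e-17), with the 3 libraries of each clone close together. Type V needs COL5A1, and that partner held 12, 18 and 20 counts in wild type and 36, 41 and 21 in knockout (log2 fold change 0.96, SE 0.383, adjusted p = 0.0357). The COL5A1 groups lay next to each other, at 20 against 21 counts, and its call was lost in 9 of the alternatives, among them leaving out wild-type library a (adjusted p = 0.122), wild-type b (0.0634), knockout a (0.092) or knockout b (0.141). COL5A3 had no counts in any library.

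COL5A2 lies at chr2:189031898-189441111 (minus strand), beside COL3A1 at chr2:188974373-189012746 (plus strand), the chain of type III collagen. COL3A1 held 1, 0 and 1 counts in wild type and 4, 3 and 0 in knockout and was too low to test. Other tested genes within 5 Mb of COL5A2 had a median log2 fold change of 0.33 (25 genes, 16 higher and 5 lower). COL27A1, a fibrillar chain known from cartilage, was at 2.05, 1.67 and 1.99 CPM in wild type and at 16.9, 15.3 and 20.2 CPM in knockout (log2 fold change 3.14, SE 0.134, adjusted p = 7.81e-11).

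COL1A1, a chain of type I collagen, was at 9.50, 9.61 and 10.6 CPM in wild type and 8.28, 7.48 and 11.5 CPM in knockout (log2 fold change -0.18, SE 0.138, adjusted p = 0.248). The groups overlapped because knockout library c was above all wild-type libraries. Without knockout library c the log2 fold change was -0.36 (adjusted p = 0.00974). Its partner COL1A2 held 2, 0 and 4 counts in wild type and 0 in each knockout library. COL24A1 had a wild-type mean of 0.186 CPM against 0.347 CPM (log2 fold change 0.83, SE 0.509, adjusted p = 0.156). The other fibrillar chains COL2A1, COL11A1 and COL11A2 were not detected, at no more than 2 counts in any library.

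In the network class, 4 of 8 members were tested, and the 3 type VI chains rose while COL8A1 fell. COL6A1, the most abundant collagen chain per length in both clones, was at 117, 115 and 122 CPM in wild type and at 375, 379 and 371 CPM in knockout (log2 fold change 1.61, SE 0.028, adjusted p = 8.05e-15). COL6A2 was at 53.2, 51.8 and 56.4 CPM against 243, 234 and 237 CPM (log2 fold change 2.09, SE 0.033, adjusted p = 3.69e-15). COL6A3 held 14, 12 and 7 counts in wild type and 290, 237 and 221 in knockout (log2 fold change 4.49, SE 0.247, adjusted p = 1.15e-09). Each type VI chain was separate between the clones, as were 77.3% of all tested genes, and the scarcest had the largest fold. That chain, COL6A3, passed the filter on low counts through knockout only, so its values are not separate from that filter. Type VI collagen is assembled from COL6A1, COL6A2 and COL6A3.

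COL6A1 and COL6A2 lie on chromosome 21 at 45981770-46005048 and 46098112-46132848, both on the plus strand, and COL6A3 lies at chr2:237324018-237414164 (minus strand). The median log2 fold change of other genes within 5 Mb was -0.01 around COL6A1 and COL6A2 (49 genes) and -0.43 around COL6A3 (57 genes, 13 higher and 37 lower). More genes around COL6A3 were lower than higher, and the part of the region in its value was not tested. COL6A5 had no counts, and COL6A6 had at most 6 in a library.

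COL8A1, a short chain of the hexagonal lattice known from the corneal and vascular endothelial membranes, was at 151, 154 and 154 CPM in wild type and at 30.5, 28.7 and 28.9 CPM in knockout (log2 fold change -2.44, SE 0.033, adjusted p = 7.67e-16). Genes within 5 Mb had a median of -0.40 (33 genes, 8 higher and 21 lower). Its relative COL8A2 was too low to test, at 0, 6 and 0 counts in wild type and 6, 6 and 8 in knockout. COL10A1, of growth plate cartilage, was also too low, with at most 8 counts.

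FACIT chains moved both ways. Of 10 members, 6 were tested: COL14A1, COL16A1 and COL21A1 rose, COL9A2 and COL12A1 fell and COL9A3 did not pass. COL12A1, which bridges type I fibrils and neighbouring matrix, was the FACIT chain with the highest level, at 237, 211 and 209.8 CPM in wild type and 193, 192 and 182 CPM in knockout. The groups were separate but close (log2 fold change -0.27, SE 0.043, adjusted p = 7.52e-05), and the change did not pass a test against a 1.5-fold difference (edgeR glmTreat adjusted p = 1.0). The chains that rose were all scarce.

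COL16A1 was at 1.23, 0.775 and 1.10 CPM in wild type and at 7.81, 6.41 and 8.26 CPM in knockout (log2 fold change 2.80, SE 0.194, adjusted p = 1.40e-08). COL21A1 held 1, 4 and 0 counts in wild type and 22, 29 and 22 in knockout (log2 fold change 3.77, SE 0.677, adjusted p = 1.84e-04), and the log2 fold change was 5.29 without wild-type library b. COL14A1, a fibril surface chain known from tendon and skin, held 0, 1 and 0 counts in wild type and 15, 41 and 16 in knockout. From the summed counts of 1 and 72, the depth-corrected ratio was 75.0, with an exact 95% interval of 13.0 to 3002 that covers counting error only (edgeR adjusted p = 7.19e-05). For these 3 chains no library of one clone reached the range of the other, as for 77.3% of all tested genes. COL14A1 and COL21A1 passed the filter on low counts through knockout only. They were tested because of their knockout level, so their values are not separate from that filter.

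COL9A2, a type IX chain known from cartilage, was at 17.4, 15.9 and 18.4 CPM in wild type and at 4.95, 3.67 and 3.93 CPM in knockout (log2 fold change -2.09, SE 0.117, adjusted p = 1.39e-09). Its partner COL9A3 held 40, 40 and 27 counts against 34, 28 and 32 (log2 fold change -0.18, SE 0.318, adjusted p = 0.623). COL9A3 overlaps the more abundant TCFL5 on the other strand (mean count 1332 in wild type and 1468 in knockout), so its low count is uncertain without a stated strand setting. COL9A1, the third chain, had no counts. COL19A1 and COL22A1 were not detected, and COL20A1 had 4 counts in knockout library a and none elsewhere.

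The 2 tested transmembrane chains moved in opposite directions. COL17A1, the hemidesmosomal collagen of epithelial cells and an autoantigen of blistering skin disease, was at 144, 143 and 141 CPM in wild type and at 21.3, 21.5 and 21.9 CPM in knockout. That was a 6.87-fold difference (log2 fold change -2.78, SE 0.033, adjusted p = 2.96e-16), and the libraries of each clone agreed closely. COL13A1, found at sites of cell adhesion and at the neuromuscular junction, was at 36.2, 37.8 and 35.8 CPM against 65.5, 67.9 and 69.9 CPM (log2 fold change 0.83, SE 0.049, adjusted p = 2.51e-09). These chains share chromosome 10 but lie far apart, and the genes within 5 Mb had medians of -0.03 (COL17A1) and -0.01 (COL13A1). COL23A1 had no counts and COL25A1 had at most 4. Of the remaining 2 chains, COL26A1 was not detected, and COL28A1 held 10, 15 and 6 counts in wild type and 14, 20 and 23 in knockout (log2 fold change 0.88, SE 0.475, adjusted p = 0.109).

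The stretch before the COL17A1 start, outside GENCODE 29 exons, is shown as that of the chain that was most abundant per length in wild type among those that fell, again with motif matches in capitals.
COL17A1, chr10:104085958-104086130, minus strand: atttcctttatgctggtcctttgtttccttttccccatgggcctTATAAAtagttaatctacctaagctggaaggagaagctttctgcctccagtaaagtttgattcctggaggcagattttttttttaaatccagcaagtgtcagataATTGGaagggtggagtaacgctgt
Of the 44 chains, 32 had entries in the RefSeq promoter table, and 20 of the 26 tested chains gave 26 windows of 250 bases before a start. CAGGTG, on either strand, was in 4 of these windows (those of COL4A3, COL4A4, COL9A2 and COL16A1), against 17.5% of all 35116 promoters. The COL4A3 and COL4A4 windows hold the same site, so these are 3 separate sites. TATAAA was in 5 windows (COL6A2, COL7A1, COL13A1, COL17A1 and the downstream COL18A1 start) against 10.7% of promoters, and CCAAT was in 6 against 32.0%. The COL4A1 and COL4A2 windows hold the same CCAAT site, and those of COL4A5 and COL4A6 share CCAAT sites. Matches were counted anywhere in the 250 bases, so a TATAAA match need not lie at the place of a core promoter element. A match is only a run of letters and says nothing of binding.

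**Figure D2:**
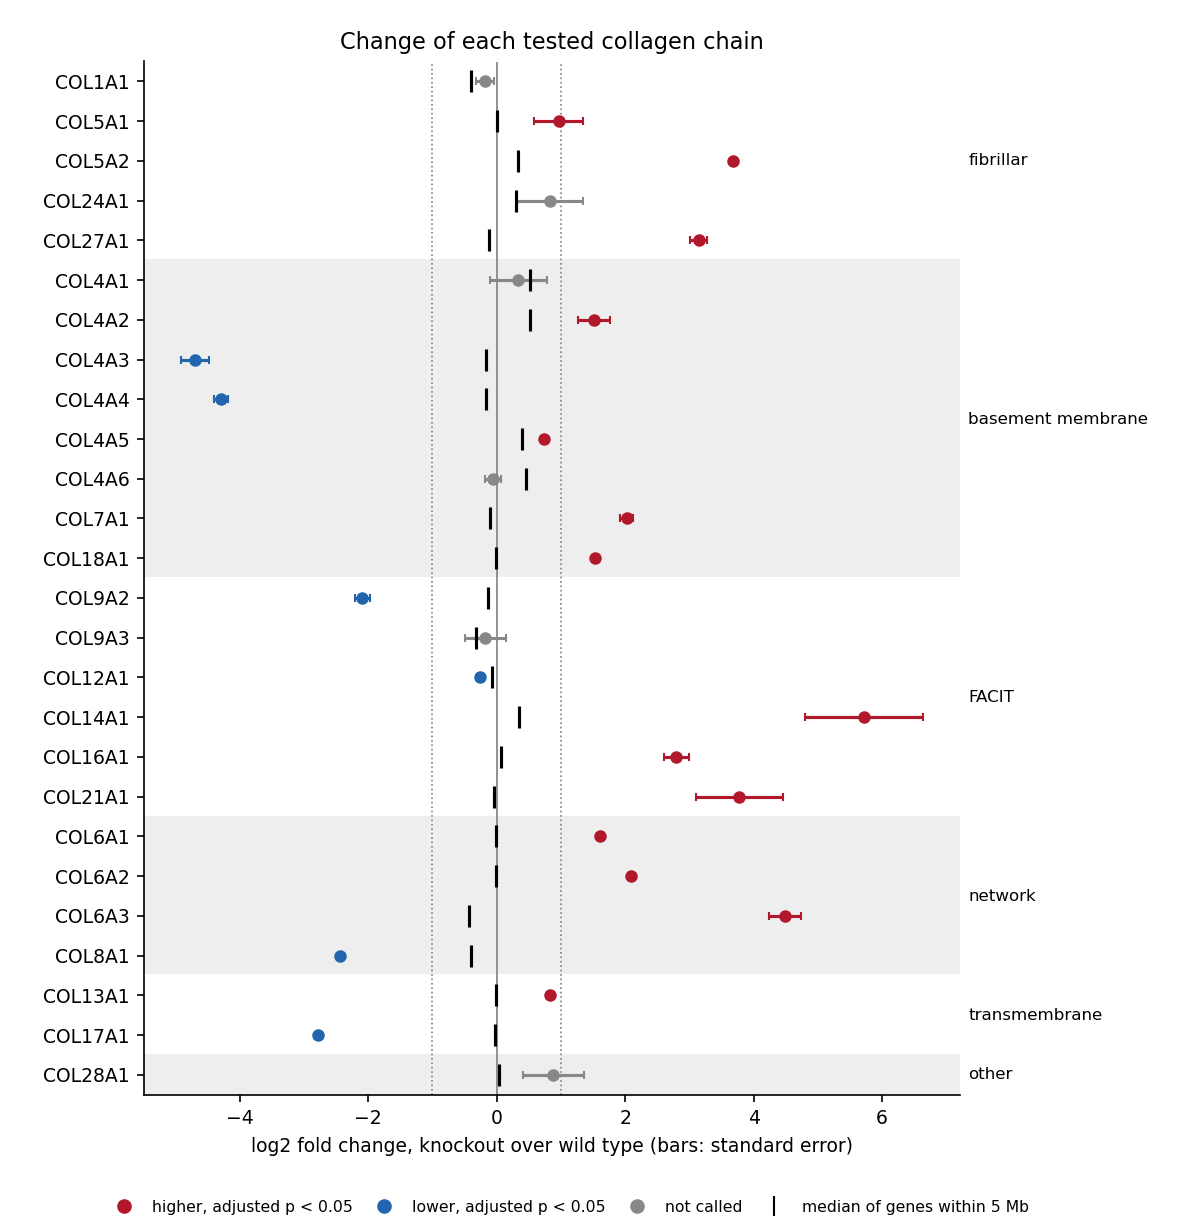
Log2 fold change of each tested chain, knockout over wild type, with its standard error (n = 3 libraries a clone), coloured by call, with a black tick for the median of other tested genes within 5 Mb and dotted lines at a 2-fold change. The ticks lie between -0.43 and 0.52 while chains range from -4.70 (COL4A3) upwards; the plotted value of COL14A1 rests on 1 wild-type count and depends on the prior count of the fit.

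Chains that are known to assemble together were compared per length, as RPKM (CPM per kilobase of merged exons). Merged exons of all annotated transcripts can be longer than the transcript expressed. The gaps here and the orders per length below therefore depend on the lengths used, such as 19.63 kb for COL6A3 and 5.343 kb for COL6A1. In counts summed over wild type, COL6A3 held 33 and COL6A1 14566. In type VI, COL6A3 was 1617-fold below COL6A1 in wild type and 219-fold below it in knockout, while COL6A2 was 2.21-fold and 1.58-fold below. In type V, COL5A1 was 87.8-fold below COL5A2 in wild type and 576-fold below it in knockout. COL4A3 and COL4A4 stood at 1.35 and 6.45 RPKM beside 4.09 RPKM of COL4A5 in wild type, and were 131-fold and 20.8-fold below COL4A5 in knockout. COL1A2 was 232-fold below COL1A1 in wild type, and COL8A2 was 85.7-fold below COL8A1 in knockout, with wild-type counts in library b only. Both COL1A2 and COL8A2 were too low to test, with at most 4 and 8 counts in a library, so these gaps are rough. COL9A3 was 22.8-fold below COL9A2 in wild type and 6.04-fold in knockout. COL4A1 was 2.9-fold and 6.54-fold below COL4A2 in wild type and knockout, and COL4A6 was 5.54-fold and 9.58-fold below COL4A5. The gap to the highest partner was larger in knockout for these type IV and V chains and smaller for types VI and IX, where the count of COL9A3 is uncertain as said above.

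The log2 ratio of the counts of 2 partners within a library does not depend on library size, and 7 pairs with both chains tested were compared. In 6 pairs the wild-type and knockout ratios did not overlap, which gives an exact two-sided permutation p of 0.1, the smallest that 3 libraries against 3 allow (Benjamini-Hochberg adjusted 0.117), so no pair could pass. The CPM of 77.3% of all tested single genes did not overlap either, and no share was computed for ratios of other gene pairs. Nothing particular to these pairs is therefore read from that count. The ratio of COL6A3 to COL6A1 was 2.88 higher in knockout on the log2 scale (-8.35, -8.57 and -9.40 in wild type against -5.72, -6.03 and -5.95). That of COL5A1 to COL5A2 was lower in knockout, with a difference of -2.74, as were COL9A2 to COL9A3 (-1.94), COL4A1 to COL4A2 (-1.23) and COL6A1 to COL6A2 (-0.48). COL4A5 to COL4A6 was 0.79 higher. COL4A3 to COL4A4 was the exception, with a mean difference of -0.46 and overlapping libraries (-2.44, -2.43 and -2.32 against -2.16, -4.07 and -2.35; exact permutation p = 0.9). Without knockout library b, in which COL4A3 held 10 counts, that difference was 0.15.

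**Figure D3:**
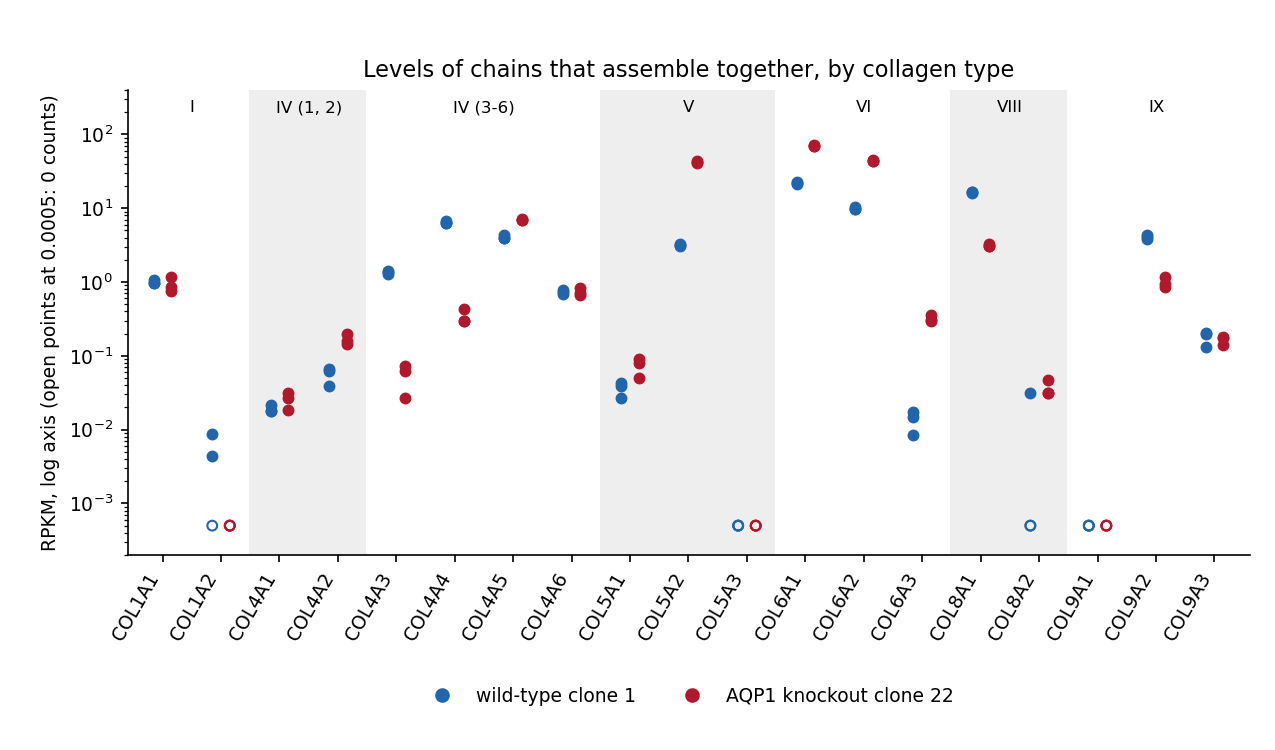
Level per length (RPKM, log axis) of chains that assemble together, grouped by collagen type, with blue points for wild-type and red for knockout libraries and open points for 0 counts. In type VI the COL6A3 points lie far below those of COL6A1 and COL6A2 in both clones, and in type V the COL5A2 points rise away from COL5A1.

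Summed over all collagen rows, the level per length was 120.5 ± 1.29 RPKM in wild type and 226 ± 2.32 RPKM in knockout. The make-up by class also differed. Fibrillar chains took 3.63% of the collagen RPKM in wild type (3.61 to 3.65% over libraries) and 19.6% in knockout (19.3 to 19.8%), of which COL5A2 alone was 18.6%. Network chains took 40.2% and 52.1%. Transmembrane chains went from 21.9% to 6.44% and FACIT chains from 18.2% to 7.64%, with no overlap between the libraries of the clones in either class. Basement membrane chains took 16.0% in wild type and 14.2% in knockout. The shares of these classes add up to the whole, so a larger share of one lowers the others, and these values are a description without a test.

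The chains that led the collagen RNA changed with this. In wild type the order per length was COL6A1 (22.1 RPKM), COL17A1 (20.2), COL12A1 (17.6), COL8A1 (16.3), COL6A2 (9.99) and COL4A4 (6.45). In knockout it was COL6A1 (70.1), COL6A2 (44.3), COL5A2 (42.1), COL12A1 (15.2), COL7A1 (14.3) and COL13A1 (11.5). Among chains next to each other in these orders, only COL12A1 (14.6 to 15.5 RPKM) and COL7A1 (12.4 to 17.4 RPKM) in knockout overlapped in their libraries.

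**Figure D4:**
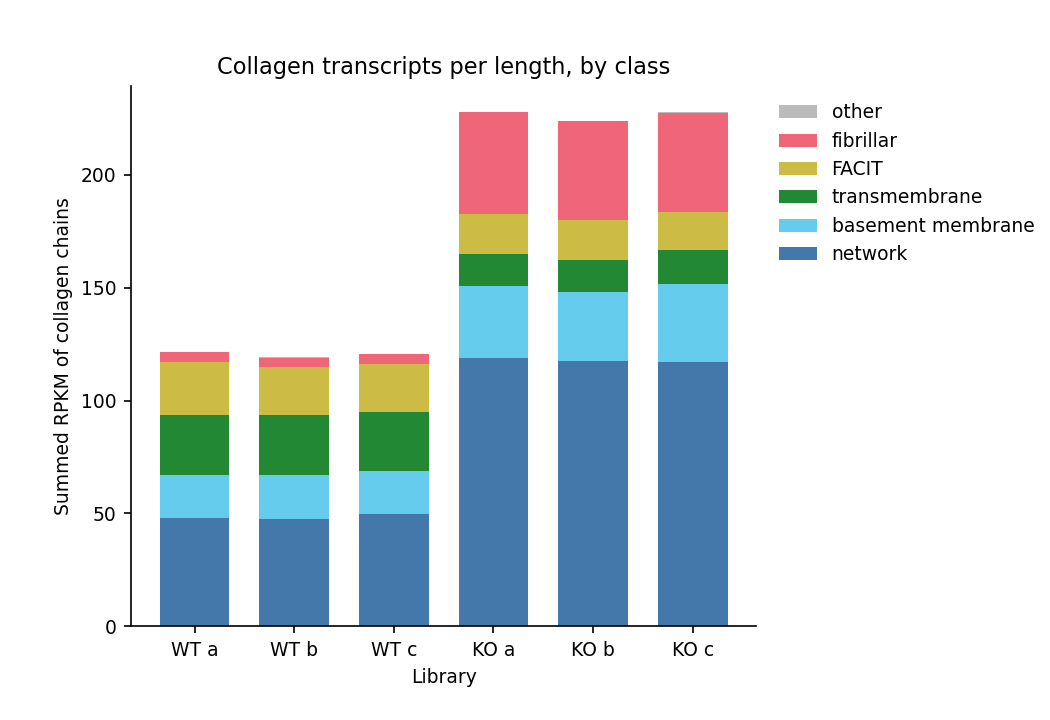
Summed RPKM of the collagen chains in each library, stacked by class from 0. The total is 119 to 122 RPKM in the wild-type libraries and 224 to 228 RPKM in the knockout libraries, and the fibrillar segment grows from 4.38 to 44.4 RPKM on average.

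Counts of the lists that follow are to be read beside the 37.1% of all tested genes that were higher and the 37.2% that were lower. In a test against a 1.5-fold difference (edgeR glmTreat) these shares were 16.5% and 13.7%. Of the pathway genes, P3H3, ADAMTS3, TLL1 and MMP2 passed the filter on low counts through knockout only. They were tested because of their knockout level, so their values are not separate from that filter. Of 18 genes that fold and modify collagen chains in the endoplasmic reticulum, 17 were tested, 13 rose and 4 fell (median log2 fold change 0.55). In the test against a 1.5-fold difference, 6 passed as higher and 1 as lower. The largest rises were the prolyl 3-hydroxylase family member P3H3 (0.0983 ± 0.129 to 0.660 ± 0.329 CPM; log2 fold change 2.67, SE 0.719, adjusted p = 0.00422; 4.55 without wild-type library a, which held most of its 12 wild-type counts, but 2.21 without wild-type b or c, below COLGALT2) and the collagen galactosyltransferase COLGALT2 (1.32 ± 0.281 to 7.54 ± 0.886 CPM; 2.46, SE 0.184, adjusted p = 3.07e-08). The largest falls were the lysyl hydroxylase PLOD3 (75.0 ± 3.40 to 44.4 ± 2.46 CPM; -0.81, SE 0.052, adjusted p = 5.63e-09) and the protein disulfide isomerase P4HB (1273 ± 6.05 to 914 ± 7.43 CPM; -0.53, SE 0.023, adjusted p = 7.67e-11).

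Export of procollagen from the endoplasmic reticulum uses enlarged COPII carriers, and its 11 genes were divided: 4 rose, 5 fell and 2 did not pass (median -0.07). With the test against a 1.5-fold difference 1 was higher and 2 were lower. The coat gene SEC23A had a log2 fold change of 0.84 (SE 0.034) and the GTPase SAR1B 0.43 (SE 0.066), while the cargo receptors MIA2 and MIA3 (TANGO1), which load procollagen, had -1.04 (SE 0.127) and -0.86 (SE 0.030). MIA3 was at 128 ± 2.54 CPM in wild-type libraries against 73.5 ± 1.83 CPM in those of the knockout.

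Of 14 genes that remove propeptides or cross-link collagen, 13 were tested, 7 rose, 3 fell and 3 did not pass (median 0.78). Leaving out 1 library gave 6 to 9 rises: ADAMTS3 was lost without wild-type a or b or knockout c (adjusted p = 0.0859, 0.0564 and 0.187), and TLL1 and PCOLCE passed without wild-type c (adjusted p = 0.0199 and 0.0211). The lysyl oxidase family member LOXL1 (1.64 ± 0.213 to 5.24 ± 0.283 CPM; log2 fold change 1.62, SE 0.171) and the C-proteinase BMP1 (10.5 ± 0.289 to 32.8 ± 1.20 CPM; 1.59, SE 0.060) had the largest rises. The N-proteinase ADAMTS14 (-2.11, SE 0.285) and LOXL3 (-1.30, SE 0.174) had the largest falls.

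Collagen receptors and collagen-degrading proteases were also read. Of 12 receptors, 7 were tested, 3 rose, 3 fell and 1 did not pass (median -0.36). MRC2 (Endo180), which takes up collagen fragments, went from 3.50 ± 0.730 to 118 ± 4.04 CPM (log2 fold change 5.03, SE 0.093, adjusted p = 1.72e-14). Among the integrin chains that bind collagen, ITGA1 rose (13.96 ± 1.43 to 67.9 ± 4.39 CPM; 2.23, SE 0.079, adjusted p = 1.14e-11) and ITGA2 fell (439 ± 13.4 to 200.3 ± 12.0 CPM; -1.19, SE 0.040, adjusted p = 7.56e-12). The receptor kinase DDR1 fell (-0.96, SE 0.117). Of 11 proteases, 7 were tested, 4 rose, 2 fell and 1 did not pass (median 1.13). MMP2, a gelatinase, held 8 counts summed over the wild-type libraries and 265 over the knockout libraries (log2 fold change 4.99, SE 0.391, adjusted p = 4.99e-08). All its wild-type libraries, at 0.0484 to 0.0959 CPM, were under the filter's cutoff of 0.245 CPM. The collagenase MMP13 went from 0.372 ± 0.0232 to 2.06 ± 0.157 CPM (2.41, SE 0.283). The 2 falls were small, at -0.31 for MMP1 and -0.24 for MMP14, and neither passed the test against a 1.5-fold difference. The MMP1 call was lost without knockout library b (adjusted p = 0.0700) and also when wild-type library c was left out (adjusted p = 0.0869).

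Markers of cell types were read beside the collagen values. Of 9 bile duct and epithelial markers, 8 fell and CFTR did not pass, and their summed level was 6527 to 6570 CPM in wild-type libraries and 2717 to 2786 CPM in knockout libraries. The cell adhesion genes CDH1 (E-cadherin) and EPCAM went from 202 ± 4.52 to 15.0 ± 1.28 CPM and from 484 ± 6.24 to 40.7 ± 1.41 CPM. Of 12 fibroblast markers, which hold no collagen, 9 were tested, 5 rose (DCN, LUM, PDGFRA, PDGFRB and TCF21), 2 fell (FBLN1 and MFAP5) and 2 did not pass. DCN (0.0320 to 0.907 CPM) and TCF21 (0.113 to 1.76 CPM) were near the floor in wild type, with 4 and 14 summed counts. Both passed the filter on low counts through knockout only, and MFAP5 through wild type only. The log2 fold change of DCN went from 4.63 to 8.16 without wild-type library c. That of TCF21 went from 3.87 to 5.95 without wild-type library b. Their summed level was 233 to 247 CPM in wild type and 113 to 117 CPM in knockout, most of it FBLN1 (227 ± 7.22 and 83.2 ± 2.60 CPM). DPT had no counts, and THY1 and FAP held at most 9 and 14 counts summed over a clone. Of 6 endothelial markers, 3 were tested and none passed, at 2.18 to 2.59 CPM in sum against 2.15 to 3.06 CPM. Among leukocyte markers, PTPRC had no counts, CD3E had 1, and CD68 and ITGAM rose, with a summed level of 106 to 112 CPM in wild type and 203 to 210.2 CPM in knockout, nearly all of it CD68 (109 ± 2.91 and 207 ± 3.83 CPM). The ITGAM rise was lost in 10 alternatives (edgeR adjusted p of 0.0674 without knockout library b, for example). In bulk RNA, fewer cells with a transcript and less of it per cell cannot be told apart, and the part of any change of cell make-up in the collagen values was not tested.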

How the data were processed

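Polyadenylated RNA of 6 HuCCT1 libraries was sequenced from stranded TruSeq mRNA libraries, per the labels' protocols. The authors deposited 1 table of whole-number read counts per gene symbol, without normalization. Trimmomatic 0.33, FastQC, HISAT2 and edgeR were used with genome build hg38, per the submitters' processing notes; how reads were assigned to genes (program, strand, annotation) is not given in the sources used here. Over all gene rows and libraries the count 1 occurs 2405 times and the count 2 occurs 4794 times, and whether both reads of a pair were counted is not given in the sources used here. Counting intervals assume independent counts.

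All 26485 rows entered 1 fit with edgeR 4.0.16 (R 4.3.3): filterByExpr, TMM factors (0.98 to 1.024), a quasi-likelihood F test of the 2 groups and Benjamini-Hochberg adjustment over 14405 tested rows. Calls used an adjusted p under 0.05. Standard errors were taken from the fit as log2 fold change over the root of F. A count of 3 equals 0.0719 to 0.0812 CPM. RPKM used merged exon lengths of GENCODE 29. Of all rows, 23758 matched a RefSeq symbol, 1536 an older symbol and 1191 none. Partner ratios used 0.5 added to each count. Gene positions, promoter sequences and starts came from RefSeq (GRCh38.p14), and gene strands from GENCODE 29.

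Chains and gene lists were chosen with earlier results of these data known. Values in every library are given for chains that passed with at least a 2-fold change, the most abundant chain of each class and partners of either. In each pathway list, the 2 genes that rose most and the 2 that fell most are named, and for marker lists the choice was made after the values were seen. Alternatives covered the tool (DESeq2 1.42.0 or limma-voom 3.58.1), the scaling (RLE factors or totals only), the filter (none, or 1 CPM in 3 libraries), a block for the letters, a test against a 1.5-fold change, a threshold of 0.01 and leaving out each library.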

Additional observations from a re-analysis of the deposited data

How the results depend on the processing

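The number of chains higher in knockout was 14 and was 11 to 14 under the alternatives (11 with a filter of 1 CPM, which tests fewer chains), and the number lower was 6 and ranged from 5 (test against a 1.5-fold change) to 7 (without knockout library c, where COL1A1 passed). Leaving out each library gave 13 to 14 higher and 6 to 7 lower. Of 20 called chains, 18 kept their call and direction under every alternative that tested them; COL5A1 (adjusted p up to 0.203) and COL12A1 (only in the test against a 1.5-fold change) did not. With the replicate letters as a block, 13 were higher and 6 lower, COL5A1 being lost (edgeR adjusted p = 0.0740). The correlations of same-letter deviations over all tested genes were 0.058, -0.020 and 0.008. Whether a letter stands for a shared culture or preparation was not tested. Halving the counts, chosen after seeing the data, gave 13 and 6. No scaling moved the median of all genes by more than 0.054 (log2). With a 2 Mb window the median of neighbouring genes moved by at least 0.2 (log2) around COL4A3 and COL4A4 (-0.65), COL6A2 (0.25), COL6A1 (0.22) and COL12A1 (0.14), and with 10 Mb around COL4A6 (0.19) and COL16A1 (-0.14). A count of 0 to 3 in a library sets the depth limit: 10 chains were at or under it in all libraries, which does not show that they are absent.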
